A study of Mus musculus with 2 samples.

Results

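Translation initiation and elongation factors are the soluble proteins that load ribosomes onto mRNA and move them along it, and their own transcripts were examined here for peaks in an ELAVL2 RNA immunoprecipitation (RIP) from newborn mouse ovary. The genes were taken from the authors' deposited gene table by symbol: names beginning with Eif1 to Eif6, Eef1 or Eef2, or Pabpc, leaving out Eif4enif1, chromosome Y and pseudogenes. The rule found 27 of the 11969 genes in that table. A RIP peak overlapped the gene body of 18 of them, with 96 peaks of the 28332 in the series, and the other 9 were paired only with a peak outside the body. A RIP collects a protein on antibody-coated beads with the RNA it carries, and a peak is a short stretch where RIP reads pile up above the input. The groups were 1 ELAVL2 RIP sample (5 ug of antibody) and 1 input sample (5% of the starting material), both from whole ovary of postnatal day 0, with 100 frozen ovaries pooled in the homogenate. The labels give no strain, genotype or treatment. RNA was amplified as antisense RNA before libraries of 36-base reads were made.

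In initiation, eIF1, eIF1A, eIF2, eIF3 and eIF5 assemble on the small ribosomal subunit, while the cap-binding eIF4E, the scaffold eIF4G and the helicase eIF4A bring the mRNA. eEF1A delivers aminoacyl-tRNA and eEF2 moves the ribosome during elongation, and cytoplasmic poly(A)-binding proteins (PABPC) hold the 3' tail. ELAVL2 belongs to the ELAVL (Hu) family of RNA-binding proteins, which are known to bind U-rich and AU-rich sequence, often near the 3' ends of mRNAs.

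With duplicate tags removed, the RIP had 13787676 tags, which was 7.98% of its 172711531 aligned tags. The input had 19479946, which was 9.26% of 210270620. Each peak has a pileup, the number of RIP tags overlapping at its summit, and a local input level, scaled by the peak caller to the RIP. Its fold enrichment is the ratio of the pair with a pseudocount of 1 on both. With 1 tag of 50 bp kept per position and strand, no pileup can exceed 100, which sets an upper bound on the fold at a high input level. The highest pileup of a member peak was 82, and the effect of the ceiling on the folds was not tested. With 1 sample per group there was no replicate and no test between groups, so the intervals given are exact 95% intervals that cover counting error only. Those of a fold cover the counting error of the RIP pileup and leave out that of the input, so they are too narrow where the input level is low. No control pulldown was analysed here, so binding to ELAVL2 and other retention on the beads cannot be told apart. In a bulk tissue lysate, fewer cells of a type and less RNA per cell cannot be told apart either. A peak is enrichment over input and not expression, so the peaks do not check which cells the tissue held. They overlapped 6 of 12 oocyte marker genes (Ddx4, Dazl, Kit, Lhx8, Bmp15 and Taf4b), 1 of 7 pregranulosa genes (Fshr), 1 of 3 endothelial genes (Tek), 0 of 4 stromal genes and 0 of 4 blood genes, beside 23.7% of all protein-coding genes.

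The first comparison asked which translation factor transcripts were enriched in the RIP over input. Of 78 protein-coding genes that fit the same symbol rule in the RefSeq gene table of GRCm38.p6, the assembly of mm10, 18 (23.1%, exact binomial interval 14.29 to 33.997) were overlapped by a peak. Of all 21644 protein-coding genes outside chromosome Y, 23.7% were overlapped, so the family's share was near the background. This background, here and below, takes in all such genes, whether or not they are expressed in the ovary. A comparison among expressed genes was not made. By peaks in exactly 1 gene the count was 16 of 78, against 21.3% of all genes. With a -log10 q of at least 3 it was 17 of 78 against 19.7%. With a pileup of at least 20 it was 18 of 78 against 17.3%. With a fold of at least 3 it was 10 of 78 against 18.3%. With peaks paired with exactly 1 gene it was 10 of 78 against 9.86%, and with reference bodies 19 of 78 against 24.4%. The best fold of a gene is the largest fold among the peaks that overlap it. Its median was 3.03 over the 18 members (range 1.90 to 7.61), against 4.38 over 5107 other overlapped protein-coding genes. The median number of peaks per gene was 4.5 in the members and 3 in the other genes. Only 4 of the 18 members, Eif4e3, Eif4g3, Eif6 and Eif5a2, had a best fold above 4.38. These 4 best peaks had pileups of at most 20 and input levels of at most 2.76.

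**Figure D1:**
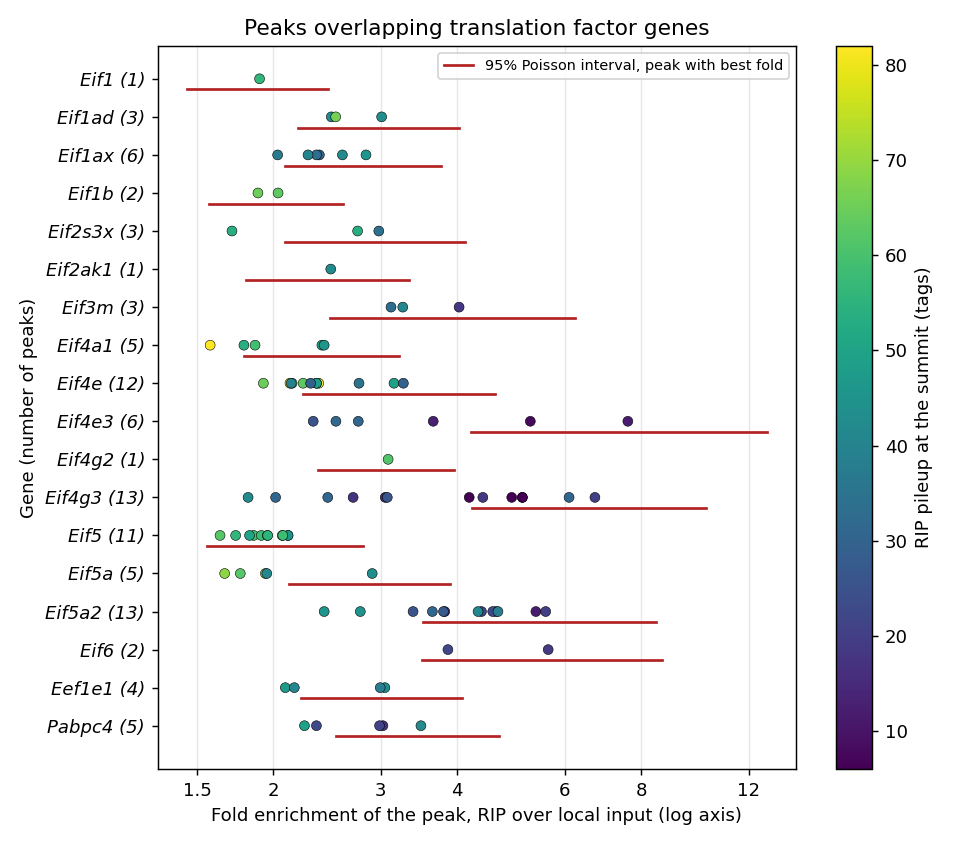
Each point is 1 peak overlapping a translation factor gene, with its fold enrichment on a log axis, its gene on the vertical axis (number of peaks in brackets) and its RIP pileup as colour; the red line is the 95% Poisson interval of the peak with the gene's best fold. Eif4e3 (7.61), Eif4g3 (6.72), Eif6 (5.64) and Eif5a2 (5.58) reach furthest to the right, and the points of Eif5 lie between 1.64 and 2.11.

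By role, overlap with a peak was found for 4 of 5 genes of the eIF1 and eIF1A group, 4 of 5 of the group of eIF5, eIF5A, eIF5B and eIF6, 2 of 3 eIF4G genes and 2 of 4 eIF4E genes. It was found for 1 of 5 eIF2 genes, 1 of 4 eIF2 kinase genes and 1 of 6 genes of eIF4A, eIF4B and eIF4H. It was found for 1 of 14 eIF3 subunit genes, 0 of 5 eIF2B genes, 0 of 3 genes of the 4E-BP inhibitors, 1 of 6 eEF1 genes, 0 of 2 genes for eEF2 and its kinase, 0 of 7 elongation factor methyltransferase genes and 1 of 9 PABPC genes. These are counts in small groups beside 23.7% of all protein-coding genes, and differences between the groups were not tested.

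Of the 78 family genes 29 were under 10 kb, beside 7755 of all 21644 protein-coding genes, and 1 was above 100 kb, beside 2427. Over all protein-coding genes the share with a peak was lower in shorter genes. Under 10 kb in the reference, 7 of 29 family genes were overlapped, against 7.81% of all protein-coding genes of that length. From 10 to 30 kb the count was 7 of 34 against 20.6%, from 30 to 100 kb 3 of 14 against 36.8%, and above 100 kb the 1 family gene, Eif4g3, was overlapped, against 55.0%. The short members had low folds. The 7 members under 10 kb in the authors' table were Eif1, Eif1ad, Eif1b, Eif4a1, Eif5, Eif5a and Eif6, and apart from Eif6 their best folds ran from 1.90 to 3.01.

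Among the factors that scan for the start codon, Eif1b, a close relative of Eif1, held 2 peaks (chromosome 9, 120492606 to 120495327, mm10, plus strand). One of them lay at the 5' end of the gene and can be shown as sequence, because it falls in the RefSeq start-site window of the gene D830035M03Rik. Of the 96 member peaks this could be done for 2 summits, the other being in Eif5a. The lines below give 30 bases around each summit in the direction of the gene, with the summit base in capitals, at chr9:120492735-120492764 (plus strand) and chr11:69921198-69921227 (minus strand), from RefSeq windows of GRCm38.p6.
Eif1b: tgcagcctcctgacaCggtgatccgggcgg
Eif5a: gggttcggaggcagCagttgggctcgcggc

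Both peaks were GC-rich. Of the 140 bases of the Eif1b peak inside the window 62.9% were G or C, and of the 51 bases of the Eif5a peak 68.6% were, against means of 51.4% and 53.5% at the same place in all 32851 windows. The motif TTTTT, searched on both strands, was in neither stretch and was present at the same place in 28.4% and 10.3% of all windows. ATTTA, which can overlap TTTTT, was also in neither and was present in 22.0% and 7.49% of windows. This says only that these letters were not in these stretches. They could be read only because they lie in start-site windows, so they do not stand for the other member peaks.

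At the Eif1b peak over the 5' end the RIP pileup was 63 and the input level 30.4, a fold of 2.04 (1.57 to 2.60) with a -log10 q of 3.78. The authors paired this peak with Eif1b only, but it also lies in the start-site window of D830035M03Rik. The peaks carry no strand, and whether RNA of that gene contributed was not tested. The other Eif1b peak, near the 3' end, had a pileup of 65 against 33.97 and a fold of 1.89. Eif1, the AUG-recognition factor (chromosome 11, 100319885 to 100322096), held 1 peak at 92.1% of its length with a pileup of 56 against 29.0 and a fold of 1.90 (1.44 to 2.46). Eif1 and Eif1b had the highest input levels at their best peaks of the 18 members, and the lowest best folds. As the input level is computed from the fold, this is a description only.

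Eif1ax, which encodes eIF1A (chromosome X, 159372178 to 159389928), held 6 peaks, all in the last 25% of the gene between 159386689 and 159389400. Their pileups were 30 to 46, their input levels 12.03 to 17.7 and their folds 2.03 to 2.84. Eif1ad, a nuclear protein with an eIF1A-like domain and no established part in initiation (chromosome 19, 5366813 to 5371511), held 3 peaks with folds of 2.49, 3.01 and 2.53 at pileups of 42, 43 and 66. They covered 65.6% of the 823 bp from the start of the 5'-most to the end of the 3'-most. Eif1a was the gene of this group with no row among those analysed here.

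eIF2 carries the initiator tRNA, and of its 3 subunit genes with the relatives Eif2a and Eif2d only Eif2s3x, the X-linked gene of the gamma subunit, was overlapped (chromosome X, 94188707 to 94212862, minus strand). Its 3 peaks lay in the last 10%, with pileups of 54, 53 and 34 against input levels of 31.1, 18.7 and 10.8. The peak with the best fold, 2.98 (2.09 to 4.13), was at 94190785 to 94190872. Of the 4 kinases that phosphorylate eIF2 under stress, Eif2ak1, the haem-regulated kinase (chromosome 5, 143817788 to 143904251), held 1 peak at 143902497 to 143902603 with a pileup of 42 against 16.3 and a fold of 2.48 (1.81 to 3.34). Eif2s1, Eif2s2, Eif2d, Eif2ak2, Eif2ak3, Eif2ak4 and the nucleotide exchange factor genes Eif2b2, Eif2b3, Eif2b4 and Eif2b5 had no row among those analysed here.

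The many-subunit scaffold eIF3 was represented by Eif3m (chromosome 2, 104999656 to 105017080, minus strand). Its 3 peaks had folds of 3.26, 3.12 and 4.03, and the best of them (2.47 to 6.24) was at 105000360 to 105000421 with a pileup of 18 against 3.72. All 3 also lay inside Ccdc73, which runs across Eif3m on the plus strand, and the peaks carry no strand, so the genes cannot be told apart here. A further 13 peaks outside the body were paired with Eif3m, 9 of them inside another gene, including the fold of 8.21 at 104989981 to 104990038, 9618 bp downstream. Eif3a, Eif3b, Eif3c, Eif3d, Eif3e, Eif3f, Eif3g, Eif3h, Eif3i, Eif3j2, Eif3k and Eif3l had no row among those analysed here.

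The cap-binding genes Eif4e and Eif4e3 had best folds of 3.27 and 7.61, and of 3.27 and 2.75 among peaks with pileups of 20 or more, which is the opposite order. Eif4e, the canonical cap-binding protein (chromosome 3, 138526179 to 138559696), held 12 peaks, and 9 of them lay in the last 25% within 3882 bp. Their RIP pileup was highest, 82 against an input level of 33.97, at 138555938 to 138556150, where the fold was 2.37. Its best fold, 3.27 (2.24 to 4.62), was at 138557395 to 138557504, where the pileup was 30 and the input level 8.49, and the mid-gene peak at 138546351 to 138546433 had the largest -log10 q of the gene, 7.97. The folds of all 12 peaks ran from 1.93 to 3.27.

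Eif4e3, a divergent member of the cap-binding family (chromosome 6, 99625135 to 99666771, minus strand), held 6 peaks of 2 kinds. The 3 peaks in the last 10% of the gene had pileups of 26, 31 and 32, input levels of 10.6 to 12.03 and folds of 2.32, 2.75 and 2.53. The other three, further towards the 5' end, had pileups of 13, 12 and 8 and input levels of 2.83, 0.708 and 0.708. Of these, the peak at 99651712 to 99651785 had the highest fold in the family, 7.61, with a counting interval of 4.22 to 12.9, which exceeded the best fold of 90.5% of overlapped protein-coding genes. Without the pseudocount it was 17.0. All 6 peaks also lay inside Gm20696, a longer gene on the same strand that takes in Eif4e3, so the names are uncertain. Eif4e1b, the oocyte relative, and Eif4e2, a repressive cap-binding protein, had no row among those analysed here, nor did the 4E-BP genes Eif4ebp1, Eif4ebp2 and Eif4ebp3, whose products block eIF4E.

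Of the eIF4G scaffolds, Eif4g3, which encodes eIF4GII (chromosome 4, 137993022 to 138208508), held 13 peaks with 10 of them outside the last 10% of the body. The 4 peaks between 138059355 and 138060012 each had a pileup of 6 and folds of 4.19 to 5.11, at input levels from 0.369, the genome-wide background, to 0.672. In the middle of the gene the peak at 138115844 to 138115999 had a pileup of 31, a fold of 6.10 and the largest -log10 q of the 96 member peaks, 12.1. The best fold, 6.72 (4.23 to 10.2), was at 138127252 to 138127371 with a pileup of 20. The 3 peaks of the last 10% had folds of 2.46, 2.02 and 1.82 at input levels of 12.03, 14.9 and 22.6. Within Eif4g3 the 10 other peaks all had higher folds and lower input levels than the 3 nearest the 3' end. The input level is computed from the fold, and at a low level only a high fold passes the q threshold, so this is a description only. Without the pseudocount the best fold of Eif4g3 was 16.3, at the peaks with a pileup of 6.

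Eif4g2, whose product DAP5 lacks the eIF4E-binding part (chromosome 7, 111070568 to 111083030, minus strand), had 1 peak, at 111070772 to 111070844 in the last 10% of the authors' gene body. The reference body runs on at the 3' end to 111067985. The pileup of the peak was 61 against 19.1, with a fold of 3.08 (2.37 to 3.95) and a -log10 q of 9.66. The canonical scaffold gene Eif4g1 had no row among those analysed here.

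The helicase gene Eif4a1 (chromosome 11, 69666936 to 69672423, minus strand) held 5 peaks with pileups of 46 to 82, against input levels of 18.4 to 51.7. The highest pileup, 82 at the 3' end, had the lowest fold, 1.58, and the best fold, 2.42 (1.79 to 3.21), was at 40.6% of the gene. The short genes Gm24029, Gm22988 and Gm25835 lie inside Eif4a1 and were paired with its 5 peaks. The nearest was 83 bp away, and no Eif4a1 peak overlapped them. A processed relative, Eif4a-ps4 on chromosome 1, held 3 peaks and was followed by 3 more within 474 bp, with pileups of 46 to 64 and input levels of 19.4 to 36.8, which overlap those of Eif4a1. The sources used here do not give how reads that match several copies were placed, and the part of such copies in these values was not tested. Another peak identical in length, pileup, fold and the place of the summit within the peak was found for 7.80% of all peaks and for 0 of the 96 member peaks. Sequence was not compared, and peaks of low pileup take few values and can match without being copies. This count cannot find copies whose values differ, as those of Eif4a1 and Eif4a-ps4 do, so it does not bear on them. Eif4a2, Eif4a3 and Eif4a3l1 had no row among those analysed here.

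eIF5A carries the modified residue hypusine and helps ribosomes through stalls. Eif5a2 (chromosome 3, 28781276 to 28798846) held 13 peaks, 12 of them in a run of 4200 bp, 28794529 to 28798728, of which peaks covered 65.0%. From its 5' to its 3' side the run went from a pileup of 20 against 3.54, a fold of 4.63, to a pileup of 46 against 18.4, a fold of 2.42. Its largest -log10 q, 10.8, was at the 706-bp peak at 28796634 to 28797339, where the pileup was 38 and the input level 7.36, and its best fold, 5.58 (3.51 to 8.48), was at 28794956 to 28795073. Without the pseudocount its best fold was 8.48, at the peak near the 5' end, 28782782 to 28782831.

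Eif5a (chromosome 11, 69916714 to 69921958, minus strand) held 5 peaks. Those in the last 10% had pileups of 62, 71 and 69 against 34.7, 36.1 and 41.1, and folds of 1.77, 1.94 and 1.66. The best fold, 2.90 (2.12 to 3.89), was at the peak shown above as sequence, 69921172 to 69921222 at 14.2% of the gene, with a pileup of 43 against 14.2. Eif5a therefore had more RIP tags at its 3' end than Eif5a2 and lower folds, over an input level that was higher. A pseudogene relative, Eif5al3-ps on chromosome 5, held 1 peak with a pileup of 38 and a fold of 3.16.

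**Figure D2:**
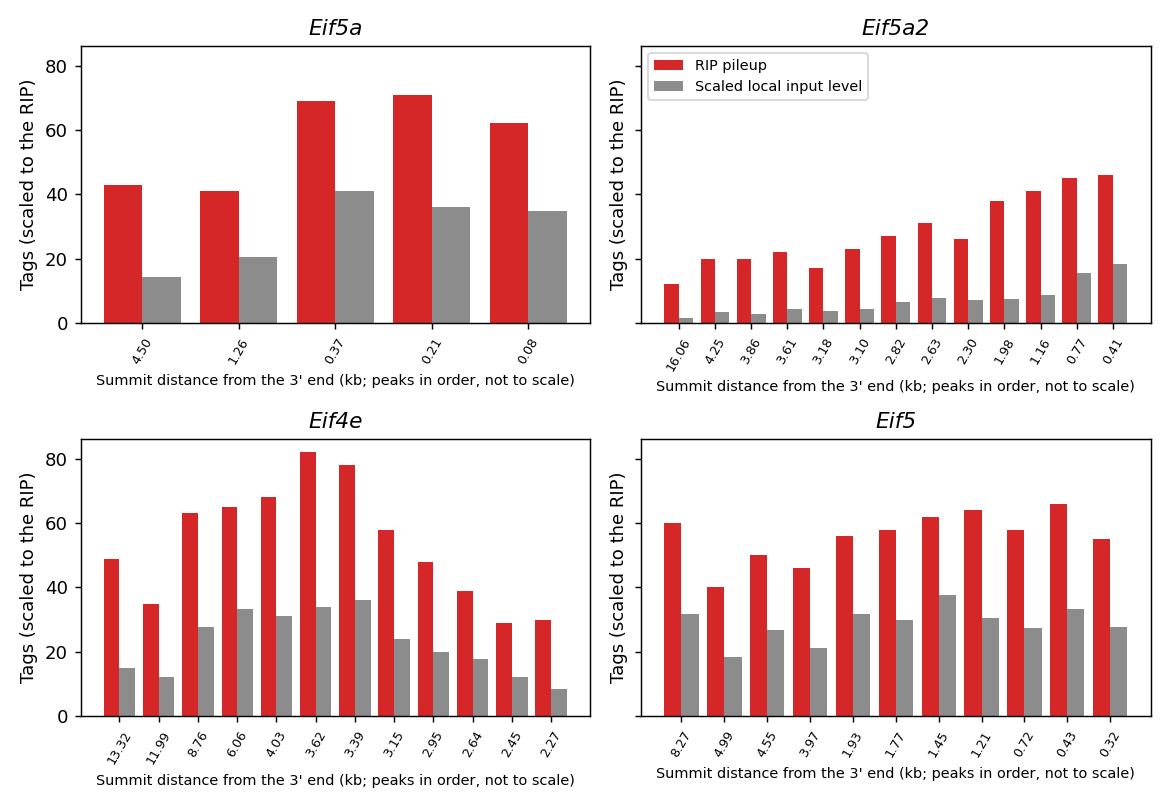
For each peak of Eif5a, Eif5a2, Eif4e and Eif5, bars starting at 0 give the RIP pileup (red) and the scaled local input level (grey) in tags, with the summit's distance from the 3' end in kb below. In Eif5a2 the pileup goes from 12 at the peak furthest from the 3' end to 46 at the nearest, and in Eif5 pileups of 40 to 66 stand over input levels of 18.4 to 37.5.

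Eif5, the GTPase-activating protein of eIF2 (chromosome 12, 111538101 to 111546753), held 11 peaks, 1 at 4.37% of its length and the others from 42.4% to 96.4%. Their pileups were 40 to 66, with a median of 58, and their input levels 18.4 to 37.5. All 11 folds lay between 1.64 and 2.11, and the largest -log10 q was 4.03, at 111545408 to 111545695. Thus Eif5 had many peaks, more than 92.8% of overlapped protein-coding genes, and folds lower than most, since its best fold exceeded that of 5.56% of them. The small nucleolar RNA gene Snora28 lies inside Eif5 and was paired with 10 of the peaks, the nearest 678 bp away, and no Eif5 peak overlapped it.

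Eif6, which keeps the large ribosomal subunit from joining early (chromosome 2, 155819832 to 155826925, minus strand), was the one member with no peak in the last 10% of the authors' gene body. Its 2 peaks lay at 21.4% and 22.8% of the gene, with pileups of 19 and 22 against 2.55 and 4.95. The former, at 155825376 to 155825443, had a fold of 5.64 (3.51 to 8.64), and the other a fold of 3.86. Eif5b, the subunit-joining GTPase gene, had no row among those analysed here.

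Of the 6 eEF1 genes, 2 genes for eEF2 and its kinase and 7 methyltransferase genes, 1 was overlapped, beside 23.7% of all protein-coding genes. It was Eef1e1, whose product is better known as a scaffold protein of the aminoacyl-tRNA synthetase complex (chromosome 13, 38645698 to 38659028, minus strand). Its 4 peaks had pileups of 43, 47, 41 and 38 from the 3' to the 5' end, and folds of 3.05, 2.09, 2.16 and 2.99. The best of them (2.22 to 4.08) was at 38645721 to 38645918, 131 bp from the 3' end. Eef1a2, Eef1b2, Eef1d, Eef2, Eef2k and the methyltransferase genes Eef1akmt1, Eef1akmt2, Eef1akmt3, Eef1akmt4, Eef1akmt4-ece2, Eef1aknmt and Eef2kmt had no row among those analysed here. Here and in the other groups, a gene without a row may still have had RNA in the RIP. Whether the pileup ceiling of 100 kept an abundant transcript from having a peak was not tested. By reference bodies, 1 peak lay in Eef1akmt4-ece2, a readthrough of its gene with the neighbour Ece2.

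Of the poly(A)-binding protein genes, Pabpc4 (chromosome 4, 123262351 to 123298925) held 5 peaks, with folds of 2.25 to 3.49. The best of them (2.54 to 4.69) was at 123296004 to 123296059 with a pileup of 42 against 11.3 and a -log10 q of 8.03. Pabpc1, the main somatic gene, and Pabpc1l, the embryonic and oocyte gene, had no row among those analysed here, nor did Pabpc1l2a, Pabpc1l2b, Pabpc4l and Pabpc6.

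With nearest genes counted too, 27 of the 78 family genes were paired with a peak, against 32.1% of all protein-coding genes. The 9 genes paired only with peaks outside them were Eif2a, Eif2b1, Eif3j1, Eif4b, Eif4h, Eef1a1, Eef1g, Pabpc2 and Pabpc5. Their nearest peaks were 2729 bp from Eif2a, 2101 bp from Eif2b1, 13360 bp from Eif3j1, 12853 bp from Eif4b and 8594 bp from Eif4h. They were 40266 bp from Eef1a1, 3671 bp from Eef1g, 96431 bp from Pabpc2 and 86055 bp from Pabpc5. The fold of 8.04 paired with Eif2a was at a peak 37286 bp upstream of it. The paired peaks of Eef1g and Eif2b1 all lay inside other genes. Such a pairing is the authors' nearest-gene entry and is no measurement of the named transcript.

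The second comparison asked where along the genes the enriched RNA lay. By the authors' gene bodies, 17 of the 18 members had a summit in the last 10%, and 5 had one in the first 10%. The reference bodies of Eif4g2, Eif4e3 and Pabpc4 have other ends, and that of Eif4g2 runs on at its 3' end from 111070568 to 111067985. Positions by reference bodies were not computed, and these counts can differ there. Among the 87 peaks that overlapped only 1 gene, 32 (36.8%, exact binomial interval 26.7 to 47.8) were in the last 10%, against 48.2% (47.5 to 48.9) of 18021 other peaks in protein-coding genes. Counted per gene, 15 of 16 members (93.8%) had such a peak, against 64.0% of 4593 other genes. The share per peak and the share per gene thus lay on opposite sides of those of the other genes. A gene with more peaks can more easily have 1 there, and the median was 4.5 peaks in the 18 members and 3 in other genes. The share per gene was chosen after seeing the data and was not compared at equal numbers of peaks. In the last 25% the shares were 67.8% (56.9 to 77.4) and 62.7%, and within 5000 bp of the 3' end 71.3% (60.6 to 80.5) and 53.2%. The window of 5000 bp takes in the whole of Eif1, Eif1b and Eif1ad, and its shares were not compared at equal gene length. The run in Eif5a2 weighed on these counts: without this gene 39.2% of 74 peaks were in the last 10% and 63.5% in the last 25%. Peaks of 1 gene share its transcript, so the intervals are narrower than independent genes would give. No exon annotation was used here, so a position counts introns as well as exons.

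**Figure D3:**
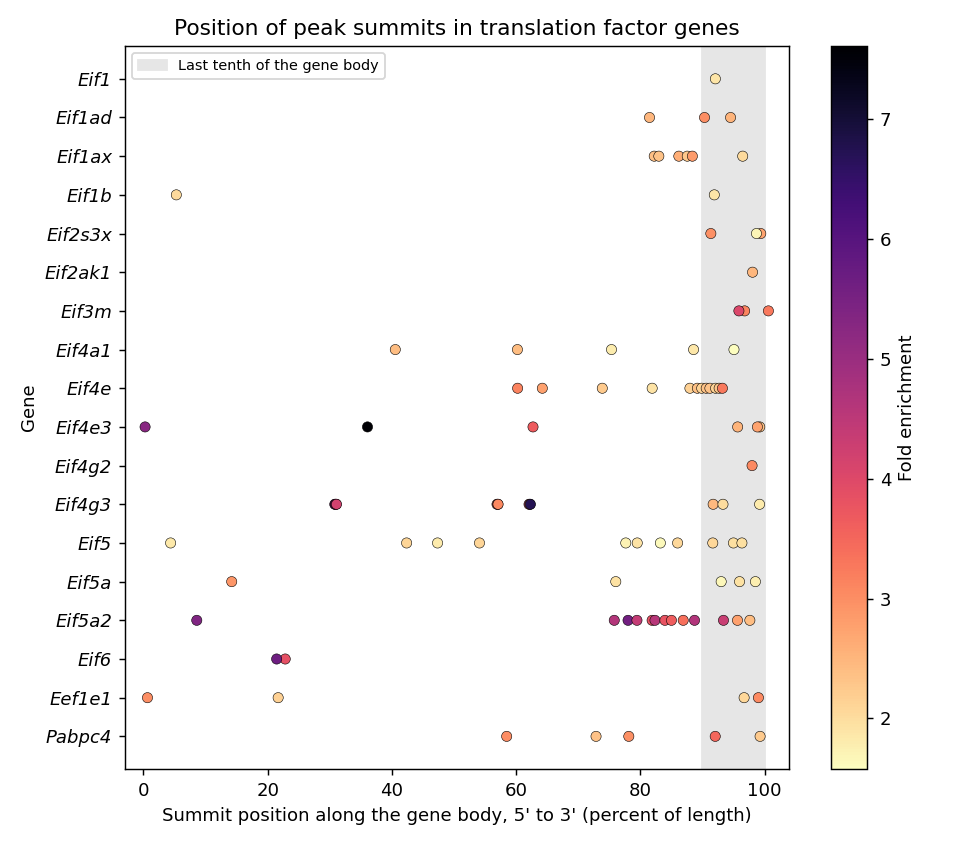
Each point is the summit of 1 peak, placed by its position along the authors' gene body from 5' to 3' in percent of the length, with the gene on the vertical axis and the fold as colour; the grey band is the last 10%. In 17 of 18 genes a point lies in or past the band, Eif6 being the exception, and the darkest points (Eif4e3, 7.61, and Eif4g3, 6.72) lie outside it.

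The third comparison set the fold of the member peaks against their input level. The member peaks had a median fold of 2.51, a median pileup of 41 and a median input level of 14.9, against 3.21, 28 and 7.89 for 19798 other peaks in protein-coding genes. Their median -log10 q was 3.80 against 4.05. Within classes of input level the median folds follow. The input level is computed from the fold, and the q threshold and the pileup ceiling of 100 limit the folds a called peak can have at a given level, so these medians are a description only. At levels below 5 the median fold was 4.63 over 21 member peaks and 4.97 over other peaks. From 5 to 10 it was 3.27 (11 peaks) and 3.30, from 10 to 20 it was 2.49 (33 peaks) and 2.51, and at 20 or more it was 1.94 (31 peaks) and 2.01. The members had 32.3% of their peaks in the highest of these classes, against 12.8% of other peaks, and 21.9% in the lowest, against 37.7%. All 11 Eif5 peaks had an input level of 18.4 or more, while 2 peaks, both in Eif4g3, were at the genome-wide background of 0.369.

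**Figure D4:**
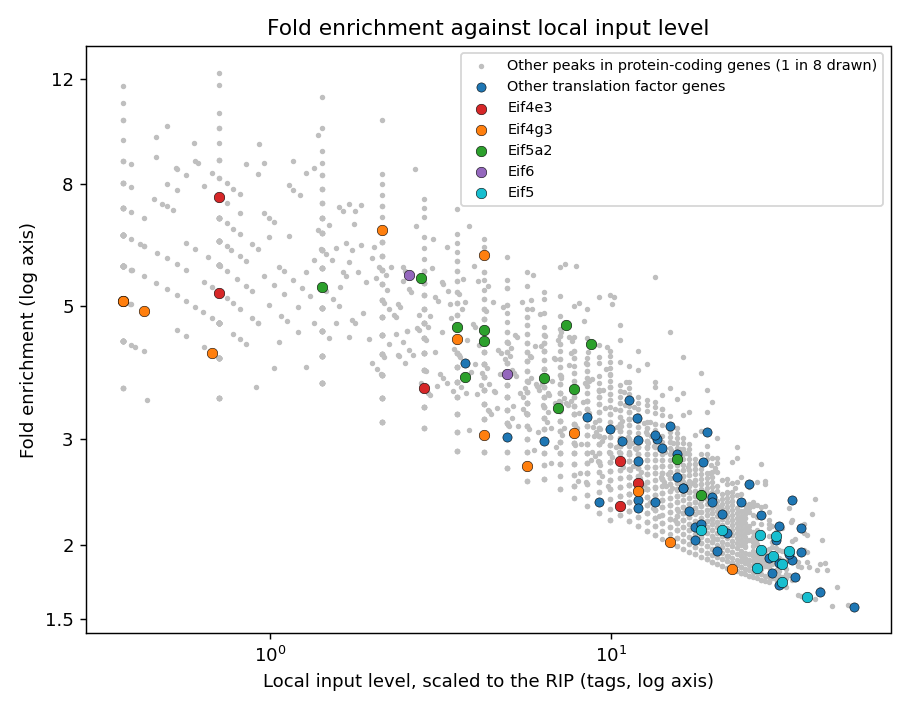
Each coloured point is 1 member peak, with the scaled local input level on the horizontal and the fold enrichment on the vertical log axis; grey points are 1 in 8 of the other peaks in protein-coding genes, ordered by input level. The members lie within the grey cloud, with Eif4e3 and Eif4g3 reaching input levels below 1 and Eif5 between 18.4 and 37.5.

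The last comparison took other genes of translation: factors that assist eIF4 and PABPC, kinases, release and recycling factors, enzymes that modify eIF5A and eEF2, and mitochondrial factors. Of 50 such genes 21 (42.0%) were overlapped by a peak, against the background of 23.7%, with a median best fold of 3.47, against 4.38 in other overlapped genes. At a pileup of at least 20 the count was 19 of 50, against 17.3% of all protein-coding genes. With nearest genes it was 25 of 50 against 32.1%. The list was not compared by gene length, and it was chosen with earlier results known. The largest folds were in Dph5 (8.33 at a pileup of 15), an enzyme of the diphthamide modification of eEF2, and in Gigyf2 (5.85 at a pileup of 7), a partner of the repressive cap-binding protein, at a peak that overlapped 2 genes. Rps6kb1, the S6 kinase of the mTOR pathway, had 5.25 at a pileup of 18, Dph6, another diphthamide enzyme, 4.80 at a pileup of 14, and Mcts1, a factor of ribosome recycling and reinitiation, 4.44 at a pileup of 16. Among peaks with pileups of 20 or more, Gigyf2 reached 2.35, Rps6kb1 4.65 and Dph6 2.60, and none overlapped Dph5 or Mcts1.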

How the data were processed

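The submitters' processing notes name MACS2 2.1.0.20140616, TopHat2 2.0.8b, CASAVA 1.8.2, FastQC 0.11.2 and the build mm10. The authors, per the file headers, pooled 3 lanes per sample, extended tags to 50 bp, kept 1 tag per position and strand and called peaks at a q of 0.05. The pileup is a signal that the authors deposited, and with 1 tag of 50 bp kept per position and strand it cannot exceed 100. The deposited fold is the ratio of RIP to scaled local input. The -log10 p and -log10 q were deposited by the authors and used only to describe and rank peaks. The deposited gene table has 85730 rows, and 42176 exact repeats were left out. The sources used here do not give how it was made.

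The input level was computed as (pileup + 1) / fold - 1, and 1 input tag equals a level of 0.708. It can come from windows of 1000 or 10000 bp. The Poisson -log10 p recomputed from it differed from the deposited value by at most 5.62e-05. Fold intervals take the exact Poisson interval of the pileup and leave the input level fixed. Of 11677 symbols 9620 (82.4%) matched the RefSeq table by current or older symbol, as did all 27 members. Overlap, position and input level steps were tested on simulated data of 2000 genes. The software was pandas 2.3.3, numpy 2.4.6 and scipy 1.17.1 in Python 3.11.15, with figures by matplotlib 3.10.9.

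Every overlapped member is named. Of the 50 other translation genes, the 5 with the largest best fold are. The members and lists were chosen with earlier results of these data known. No p-value is given, since there was 1 sample per group. Sequence under the other peaks was not used here.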

Additional observations from a re-analysis of the deposited data

How the results depend on the processing

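No paired analysis was possible because each group had 1 sample. The count of 18 overlapped members was 16 to 19 with peaks in exactly 1 gene, a -log10 q of at least 3, a pileup of at least 20 or reference bodies, and 27 with nearest genes. It was 10 of 78 with a fold of at least 3 (background 18.3%) and 10 of 78 with peaks paired with exactly 1 gene (background 9.86%). The 96 peaks became 45 when peaks within 1000 bp were merged and 61 at a -log10 q of at least 3. The 36.8% of peaks in the last 10% was 58.6% for the last 20%, 71.3% within 5000 bp of the 3' end and, chosen after seeing the data, 93.8% per gene; these are wider windows or another unit by construction. The median best fold stayed between 2.94 and 3.03 under the pileup minimum and with peaks paired with exactly 1 gene. Of the 50 other translation genes 21 were overlapped. The count was 19 of 50 at a pileup of at least 20 (background 17.3%) and 25 of 50 with nearest genes (background 32.1%). The best fold of a gene moved by more than 1.5 times at a pileup of at least 20 in Eif4e3 and without the pseudocount in Eif4e3, Eif4g3 and Eif5a2. The pileup ceiling sets an upper bound on the fold at a high input level, and its effect on these folds was not tested. A pileup of 6 to 20 leaves wide counting intervals.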
